A study of Mus musculus with 10 samples.

Results

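Tomato-marked luminal cells of the mouse mammary gland, sorted after ablation of luminal cells, were compared with luminal cells of the control groups. The comparison takes 4 of the 10 bulk RNA-seq libraries of the series, chosen by their labels: 2 libraries of Tomato luminal cells (TLC), and 2 of luminal cells (LC), of which replicate 2 is labelled WT. The TLC libraries carry the treatment luminal cell ablation, and the LC libraries carry no treatment entry. The other 6 libraries are basal cells (BC, replicate 2 labelled WT), Tomato basal cells (TBC) and Tomato hybrid cells (THC), with 2 libraries each, and the last 2 groups also carry the ablation treatment. The labels name no mouse line, age or sex, nor the driver of the Tomato reporter or of the ablation, and the reporter transcript was not analysed here. Ablation and Tomato marking therefore cannot be told apart in this comparison. Nothing says whether the 2 libraries of a group come from separate animals, so p-values measure the spread between these libraries, which may be technical.

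The mammary duct is a bilayer. Inner luminal cells express simple-epithelium keratins and include hormone-sensing cells, which carry estrogen and progesterone receptors, and progenitor or alveolar-type cells, which are devoted to milk production. Outer basal cells express stratified-type keratins and the transcription factor p63, and most are myoepithelial: they hold smooth-muscle proteins and contract in response to oxytocin. The series asks how signals between these cell types restrain multipotency, and the comparison shows how Tomato-marked cells with a luminal sort differ from luminal cells with no treatment entry.

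The number of reads assigned to genes was 5632671 and 9799263 in TLC replicates 1 and 2, and 9746963 and 13685674 in LC replicates 1 and 2. Levels are given as CPM, the counts of a gene relative to the library's reads in genes, scaled between libraries by edgeR's TMM factors. They are compared within a gene only, because they are not divided by gene length. Folds are log2 differences of TLC minus LC with their standard error (SE), and a gene is called when its Benjamini-Hochberg adjusted p from edgeR's quasi-likelihood test over all genes is under 0.05. The sort label was checked on lineage markers. Krt8, a simple-epithelium keratin, stood at 1418 and 1226 CPM in TLC, 2386 and 1770 in LC, and 417 and 317 in BC. Acta2, the smooth-muscle actin of myoepithelium, stood at 55.6 and 58.0 CPM in TLC, 34.9 and 12.4 in LC, and 1510 and 2684 in BC. By these markers TLC lay on the luminal side of BC. In bulk samples, fewer cells of a type and less RNA per cell cannot be told apart.

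Of 19757 genes tested, 1625 (8.22%) differed between TLC and LC. Higher in TLC were 881 genes (4.46%), and lower were 744 (3.77%). The median log2 fold change was 2.37 among the higher genes, -1.57 among the lower genes and 0.00 over all genes tested. At least 4-fold separated the populations for 530 of the higher and 254 of the lower genes. Among the genes that rose were basal keratins, desmosome genes and the cell division machinery, and those that fell included hormone receptors and antigen presentation genes. TLC replicate 1 carries much of the count: without it, 299 genes were higher and 195 lower, and without LC replicate 2, 338 were higher and 381 lower.

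**Figure D1:**
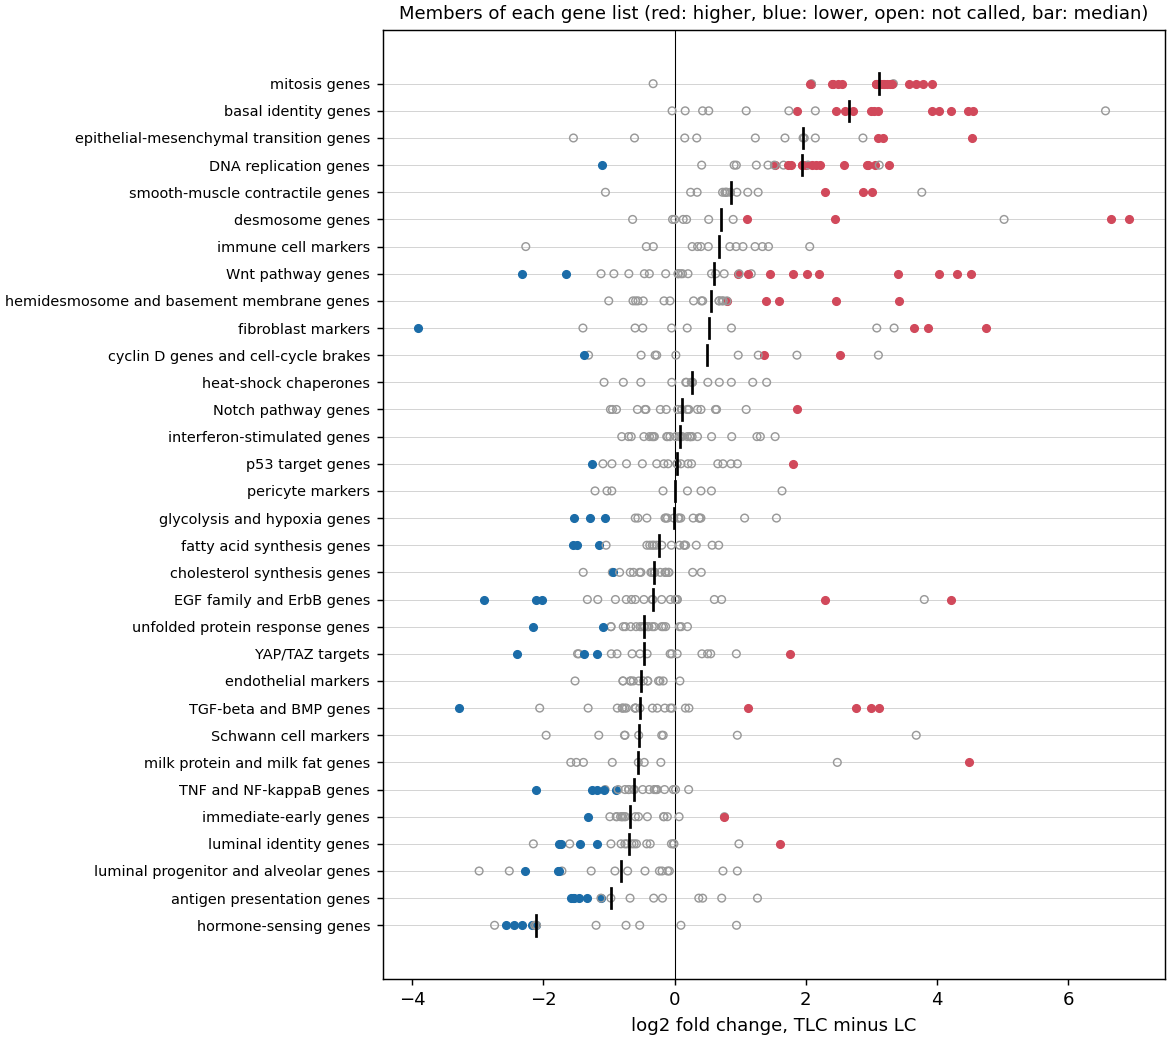
Log2 fold change (x axis, TLC minus LC) of every tested member of the gene lists with 8 or more tested genes, ordered by the list's median (black bar). Red points passed the test as higher in TLC, blue as lower, and open points did not pass. A gene with 0 counts in the lower population is drawn at its lower bound. Mitosis genes have the highest median, 3.11, and hormone-sensing genes the lowest, -2.12.

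Basal identity genes rose in the Tomato luminal cells. Of 20 tested members, 12 were higher, none was lower, and the median log2 fold change was 2.66. Krt14, the keratin that defines the basal layer (chromosome 11, 100203162 to 100207548, GRCm38), stood at 676 and 380 CPM in TLC, 34.8 and 10.6 in LC, and 2344 and 2216 in BC. Both TLC libraries thus lay between LC and BC and overlapped neither, and the difference from LC was 4.55 (SE 0.59, adjusted p = 0.0018). Krt5, its pairing partner, stood at 178 and 81.2 CPM in TLC against 11.5 and 5.74 in LC, a difference of 3.92 (SE 0.52, adjusted p = 0.0020). Krt17 was at 220 and 152 CPM against 30.9 and 14.4 (3.04, SE 0.45, adjusted p = 0.0029). Trp63, which encodes p63, the master regulator of basal cells, stood at 66.3 and 38.6 CPM in TLC, 9.54 and 6.46 in LC, and 493 and 540 in BC. Its difference was 2.72 (SE 0.33, adjusted p = 0.00092), so the regulator remained far below its basal level while exceeding every LC library.

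The same list holds surface and signalling genes. Cdh3, P-cadherin of the basal layer, was at 97.2 and 54.0 CPM in TLC and 5.20 and 1.79 in LC (4.48, SE 0.45, adjusted p = 0.00049). Lgr5, an R-spondin receptor found on some basal cells, was at 118 and 62.2 CPM against 7.70 and 3.52 (4.03, SE 0.44, adjusted p = 0.00079). Nrg1, a ligand of ErbB receptors made by basal cells, was at 119 and 49.96 CPM in TLC, 4.44 and 4.59 in LC, and 81.3 and 43.5 in BC, so TLC reached the basal range (4.21, SE 0.56, adjusted p = 0.0028). The Notch ligand Jag2 (1.86) and the transcriptional repressor Snai2 (3.10) also rose. Krt15, Sparc and Id4 rose as well, but their adjusted p without TLC replicate 1 was 0.17, 0.13 and 0.052, and Krt15 also missed the threshold without either LC library. Other members did not pass: Vim had a log2 difference of 2.14 (adjusted p = 0.10), Procr -0.04 (adjusted p = 0.99) and Tspan8 0.16 (adjusted p = 0.87). Igfbp2 had 0 counts in both LC libraries and 28.2 and 4.004 CPM in TLC, and did not pass either (adjusted p = 0.076). Without TLC replicate 1 the count of higher genes in the list was 9, and leaving out any other TLC or LC library gave 11 to 13.

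Among contractile genes of the myoepithelium, 3 of 15 tested were higher and none lower, with a median of 0.85. The log2 difference was positive in 14 of the 15, and in 10 both TLC libraries were above both LC libraries. Over all 19757 genes tested the difference was positive in 9911. The share of all genes with both TLC libraries above both LC libraries was not counted. The contractile genes called as higher bind or regulate actin and myosin in many cell types as well as in muscle. Tpm2, a tropomyosin, was at 74.4 and 53.8 CPM in TLC against 9.43 and 8.04 in LC (2.87, SE 0.30, adjusted p = 0.00049). Cald1, caldesmon, was at 488 and 290 CPM against 61.2 and 35.2 (3.01, SE 0.42, adjusted p = 0.0021). Mylk, myosin light chain kinase, rose by 2.28 (SE 0.48, adjusted p = 0.017), with an adjusted p of 0.12 without TLC replicate 1, 0.051 without TLC replicate 2 and 0.052 without LC replicate 2. Members restricted to muscle-type cells did not pass in the fit of all libraries. Of these, Actg2, smooth-muscle gamma actin, still stood higher in TLC. It was at 16.1% and 10.6% of its BC mean in TLC, against 0.662% and 1.10% in LC. Myh11, smooth-muscle myosin heavy chain, was at 36.7 and 55.3 CPM in TLC, 37.7 and 16.8 in LC, and 1716 and 3418 in BC, and the TLC and LC libraries overlapped (0.77, adjusted p = 0.37). Cnn1, calponin, was at 4.39 and 8.10 CPM in TLC against 3.58 and 2.44 in LC (1.11, adjusted p = 0.14). The oxytocin receptor gene Oxtr was at 44.6 and 37.0 CPM in TLC, 17.1 and 31.7 in LC, and 1127 and 1836 in BC (0.73, adjusted p = 0.31). Acta2, given above, had a difference of 1.27 (SE 0.45, adjusted p = 0.11), and it passed by DESeq2 (adjusted p = 0.023), by limma-voom (0.044), with no low-count filter (0.00011) and without LC replicate 1 (0.016). Without LC replicate 1, 5 of the 15 were higher, and 2 without any other of the 4 libraries.

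The distance of both lists from the basal level can be read as each gene's share of its mean in BC. Over the 17 basal identity genes with at least 10 CPM in BC, the median share was 23.4% in TLC replicate 1 and 13.4% in TLC replicate 2, with 2.86% and 1.25% in LC replicates 1 and 2. Over the 13 such contractile genes, the median was 4.60% and 4.33% in TLC and 2.04% and 1.10% in LC. In TBC the contractile medians were 163% and 116%. In both lists the TLC medians were above the LC medians. The spread inside the lists was wide, from 8.07% to 191% for basal identity genes in TLC replicate 1, and the shares are a description with no test.

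**Figure D2:**
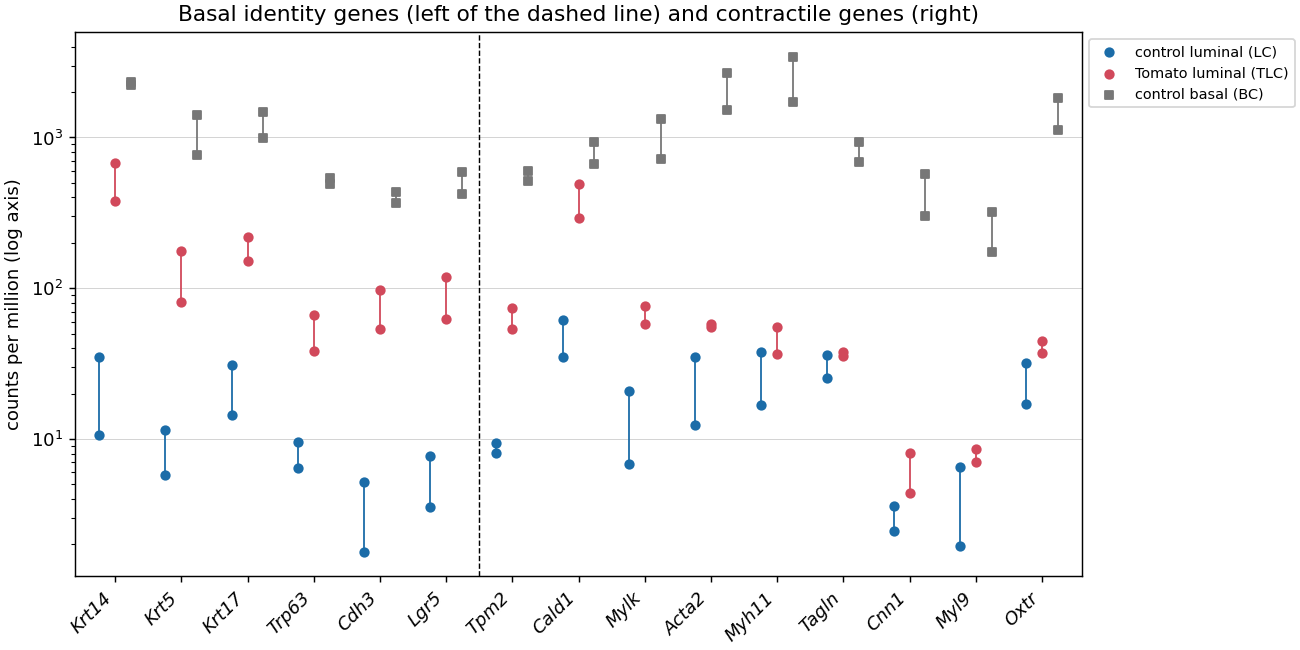
CPM on a log axis (y) of 6 basal identity genes and 9 contractile genes (x), with 2 points per gene for LC (blue), TLC (red) and BC (grey squares), joined by a line. The red points of the keratins, Trp63, Cdh3 and Lgr5 lie between blue and grey, and those of Acta2, Myh11, Tagln, Cnn1, Myl9 and Oxtr lie closer to blue than to grey.

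Genes that anchor cells to the basement membrane and to each other were in part higher. Of 20 hemidesmosome and basement membrane genes, 5 were higher and none lower, with a median of 0.55. Col17a1, a transmembrane collagen of hemidesmosomes, was at 223 and 85.9 CPM in TLC against 16.0 and 12.8 in LC (3.42, SE 0.46, adjusted p = 0.0020). Lama1, a laminin chain, rose by 2.46 and Hspg2, perlecan, by 1.59, with adjusted p of 0.066 and 0.053 without LC replicate 2. Lama1 also missed the threshold without TLC replicate 1 (0.075). Nid1 (1.39) and the integrin chain Itgb4 (0.79) passed with all libraries and lost their call when TLC replicate 1, TLC replicate 2 or LC replicate 1 was left out, Itgb4 also without LC replicate 2. In all, 2 of the list were higher without TLC replicate 1 and 2 without LC replicate 2. The laminin chain genes Lama3 and Lamb3 did not pass, with differences of 0.43 (adjusted p = 0.39) and 0.74 (adjusted p = 0.058).

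Of 12 desmosome genes, 4 were higher and none lower, and the rise exceeded the basal level for some. Dsg3, the desmosomal cadherin of stratified epithelia, was at 51.9 and 50.4 CPM in TLC, 0.867 and 0.215 in LC, 3.53 and 1.96 in BC, 15.3 and 6.52 in TBC, and 34.1 and 23.7 in THC. Both TLC libraries were above all 8 others, and the difference from LC was 6.66 (SE 0.62, adjusted p = 0.00032). Pkp1, plakophilin of stratified desmosomes, was at 391 and 493 CPM in TLC, 72.4 and 90.0 in LC, and 249 and 316 in BC, again above all other libraries (2.44, SE 0.24, adjusted p = 0.00032). Dsc3, the cadherin partner of Dsg3, was at 34.0 and 22.6 CPM in TLC, 0.325 and 0.144 in LC, and 13.1 and 14.8 in BC (6.93, SE 0.54, adjusted p = 0.00018). It stood at 17.4 and 32.7 CPM in TBC and 38.0 and 26.9 in THC, so TLC overlapped both. Perp, a tetraspan protein of desmosomes, rose by 1.10, with an adjusted p of 0.084, 0.072 and 0.056 without TLC replicate 1, LC replicate 1 or LC replicate 2. The desmosome genes typical of simple epithelia did not pass: Dsg2 differed by -0.03 (adjusted p = 0.96) and Dsc2 by 0.13 (adjusted p = 0.80).

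Hormone-sensing genes fell. Of 14 tested, 6 were lower and none higher, with a median of -2.12. Prlr, the prolactin receptor (chromosome 15, 10177238 to 10349180), stood at 718 and 781 CPM in TLC, 4247 and 4683 in LC, and 221 and 238 in BC, a difference of -2.57 (SE 0.33, adjusted p = 0.0011). Esr1, estrogen receptor alpha, was at 90.2 and 112 CPM in TLC against 400 and 511 in LC (-2.17, SE 0.24, adjusted p = 0.00070). Pgr, the progesterone receptor, was at 110 and 166 CPM against 477 and 744 (-2.14, SE 0.31, adjusted p = 0.0022). In these receptors both TLC libraries lay below both LC libraries and above both BC libraries.

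Of the paracrine genes that hormone-sensing cells make on receptor activation, Areg and Wnt4 were lower too. Tnfsf11 and Calca, also on the list, did not pass. Areg, an EGF-family ligand induced by estrogen, was at 109 and 83.5 CPM in TLC against 453 and 378 in LC (-2.11, SE 0.26, adjusted p = 0.00097). Wnt4, a Wnt ligand induced by progesterone, was at 30.3 and 44.1 CPM against 161 and 213 (-2.32, SE 0.28, adjusted p = 0.00092). Stc2 fell by 2.45 with all libraries and had an adjusted p of 0.054 without TLC replicate 1. Of the regulators on the list, Foxa1, Cited1 and Tbx3 did not pass. Foxa1, the pioneer factor that opens chromatin for the estrogen receptor, was at 256 and 353 CPM in TLC, 458 and 560 in LC, and 19.8 and 32.8 in BC (-0.74, SE 0.26, adjusted p = 0.11). Cited1, a transcriptional co-activator in these cells, was at 63.7 and 57.1 CPM against 105 and 70.0 in LC (-0.53, adjusted p = 0.30), and Tbx3 differed by -1.20 (adjusted p = 0.067). The receptors thus passed the test and Foxa1 and Cited1 did not, and the difference between them was not tested.

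**Figure D3:**
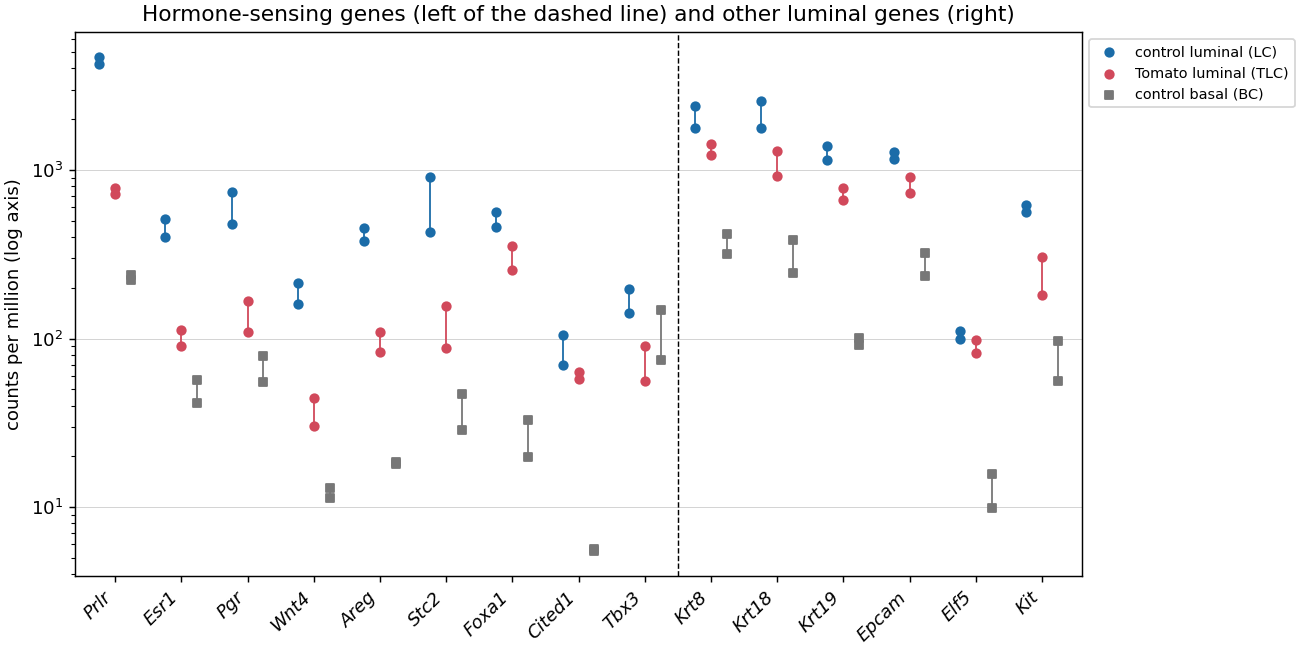
CPM on a log axis (y) of 9 hormone-sensing genes and 6 other luminal genes (x), with 2 points per gene for LC (blue), TLC (red) and BC (grey squares). Red points of Prlr, Esr1, Pgr, Wnt4, Areg and Stc2 lie well below blue, and those of Foxa1, Cited1, the keratins, Epcam and Elf5 lie closer to blue than to grey.

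Of 20 luminal identity genes, 1 was higher and 4 were lower, with a median of -0.69. Krt18 was at 1302 and 920 CPM in TLC against 2581 and 1773 in LC (-0.97, SE 0.37, adjusted p = 0.14). Krt19 differed by -0.82 (adjusted p = 0.081) and Epcam, the epithelial adhesion molecule, by -0.58 (adjusted p = 0.24). In each of these the TLC libraries were below the LC libraries, without passing the test. Elf3, an epithelial ETS factor, fell from 161 and 142 CPM in LC to 63.7 and 70.4 in TLC (-1.18, SE 0.19, adjusted p = 0.0043). Krt7 (-1.44), Cldn8 (-1.73) and Prom1 (-1.76) fell with all libraries and had adjusted p of 0.066, 0.050 and 0.095 without TLC replicate 1, Prom1 losing its call also without TLC replicate 2 or LC replicate 2. The tight-junction gene Cldn1 rose (1.60, adjusted p = 0.0095), with an adjusted p above 0.05 without TLC replicate 1 or LC replicate 2. Without TLC replicate 1, Elf3 alone of the list was called.

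Of 16 luminal progenitor and alveolar genes, 3 were lower and none higher, with a median of -0.81. Elf5, the ETS factor of the alveolar lineage, was at 97.4 and 81.8 CPM in TLC, 111 and 98.9 in LC, and 15.7 and 9.86 in BC (-0.23, SE 0.42, adjusted p = 0.82). Kit, a receptor of luminal progenitors, was at 181 and 306 CPM against 616 and 560 in LC (-1.27, SE 0.51, adjusted p = 0.17). Without TLC replicate 1 none of the list was lower, and without LC replicate 2 there were 4. Ltf, lactoferrin, fell from 1923 and 1538 CPM to 248 and 467 (-2.28, SE 0.41, adjusted p = 0.0075), with an adjusted p of 0.069 without TLC replicate 1. Lcn2 (-1.77) and Cd55 (-1.78) also fell, and both lost their call without TLC replicate 1, TLC replicate 2 or LC replicate 1. Of 9 milk genes, Csn1s2a alone passed, at 2.28 and 19.5 CPM in TLC against 0.867 and 0.215 in LC, and its call was lost without TLC replicate 2, LC replicate 1 or LC replicate 2. The major casein Csn2 was at 22.3 and 133 CPM in TLC and 22.8 and 5.74 in LC, so the libraries of each population differed widely and overlapped (adjusted p = 0.27).

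Cell division genes rose together. Of 22 mitosis genes, 19 were higher and none lower, with a median of 3.11. In 21 of the 22 both TLC libraries were above both LC libraries, and the share of all genes tested where this held was not counted. Mki67, the proliferation marker, was at 582 and 466 CPM in TLC, 28.3 and 53.4 in LC, and 11.4 and 15.7 in BC (3.68, SE 0.57, adjusted p = 0.0054). Plk1, the kinase that drives entry into mitosis, was at 19.6 and 19.6 CPM in TLC against 1.19 and 1.36 in LC (3.92, SE 0.72, adjusted p = 0.0095). Ccnb1, cyclin B1, was at 43.3 and 29.5 CPM against 2.49 and 2.73 (3.79, SE 0.68, adjusted p = 0.0099). Cenpe, a kinetochore motor, was at 96.3 and 78.3 CPM against 8.45 and 11.1 (3.15, SE 0.53, adjusted p = 0.0075). The exceptions were Aurka (-0.33, adjusted p = 0.74), Aurkb (3.33, adjusted p = 0.061) and Kif11 (2.08, adjusted p = 0.16).

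These calls depend on having both TLC and both LC libraries in the fit. By edgeR, most mitosis calls were lost on leaving out any 1 of these libraries, and all were lost without TLC replicate 1. The sizes moved little: Mki67 differed by 3.50 without TLC replicate 1 (adjusted p = 0.057) and by 3.29 to 4.21 when any other of the 4 libraries was left out. With only the populations compared in the fit, 20 of the 22 passed. The libraries of TBC were far apart in these genes, at 2.81 and 5.03 in mean log2 CPM over the list in replicates 1 and 2, while TLC stood at 5.83 and 5.42, LC at 2.40 and 3.14, and THC at 5.67 and 5.72. TBC shares the estimate of the spread with TLC and LC in the fit of all populations. Its part in the lost calls was not tested.

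Genes of DNA replication moved the same way. Of 24, 14 were higher and 1 was lower, with a median of 1.94. Mcm7, a subunit of the replicative helicase, was at 121 and 83.2 CPM in TLC against 24.7 and 28.1 in LC (1.94, SE 0.34, adjusted p = 0.0062). Rrm2, a subunit of the enzyme that makes deoxynucleotides, was at 73.2 and 37.4 CPM against 3.79 and 7.47 (3.27, SE 0.62, adjusted p = 0.013). Gins2, a factor of the same helicase, was the gene that fell (-1.10, adjusted p = 0.033), with its call kept only on leaving out LC replicate 2. Rrm2 lost its call also without LC replicate 1 or LC replicate 2. No member remained called by edgeR without TLC replicate 1, where 38 of the 46 mitosis and replication genes had an unadjusted p under 0.05. Among the cyclin D genes and brakes, Ccnd1, the cyclin of the G1 phase, was at 548 and 516 CPM in TLC and 210 and 203 in LC, above all other libraries (1.37, SE 0.25, adjusted p = 0.0080), and it stayed called whichever of the 4 libraries was left out. Cdkn2b, an inhibitor of the cyclin D kinases, rose (2.52) and Rb1, the retinoblastoma gene, fell (-1.38), with calls lost for Cdkn2b on leaving out any of the 4 libraries and for Rb1 on leaving out any but LC replicate 2.

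**Figure D4:**
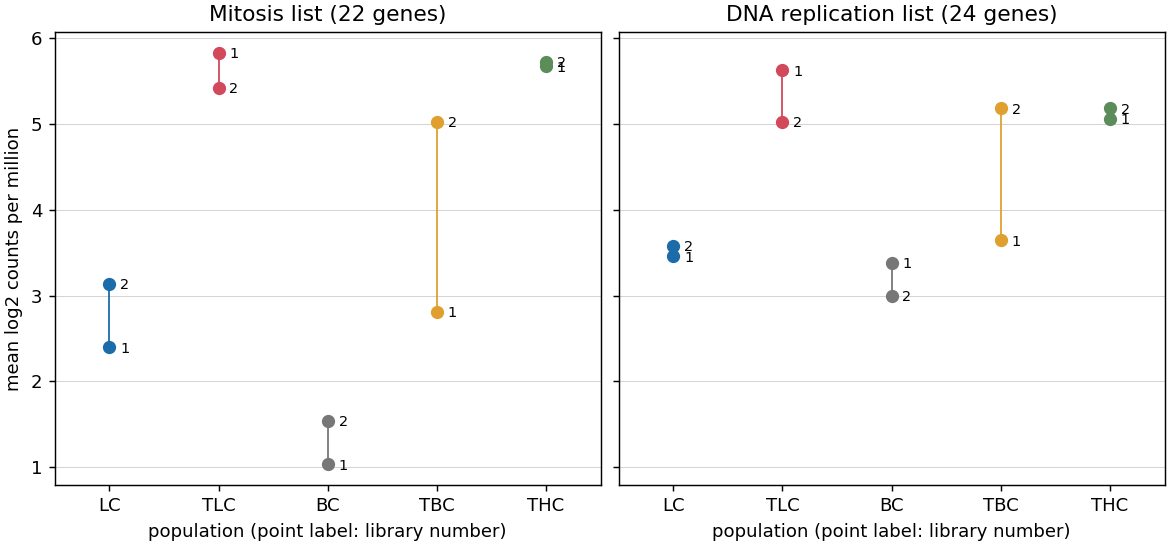
Mean log2 CPM (y) over the 22 mitosis genes (left) and the 24 DNA replication genes (right) in each library of the 5 populations (x), with the library number beside each point. TLC stands at 5.83 and 5.42 for mitosis, LC at 2.40 and 3.14, and the TBC libraries lie far apart at 2.81 and 5.03.

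Promoters of mitosis genes are shown because members moved together and their cell-cycle control is known to run through short elements near the start site: the cell cycle genes homology region (CHR, searched as TTTGAA) and the CCAAT box (CCAAT). Both were searched on both strands in RefSeq windows of 300 bases, from 250 before to 50 after the start of each gene (GRCm38.p6, first entry of a gene); neither motif contains the other. Of the 22 mitosis genes, 18 had an entry, of which 13 (72.2%) held TTTGAA and 15 (83.3%) held CCAAT, and 12 (66.7%) held both. Over all 27025 genes with an entry, 18.1% held TTTGAA, 37.9% CCAAT and 7.12% both. Of 19 DNA replication genes with an entry, 2 (10.5%) held TTTGAA and 13 (68.4%) CCAAT. The windows of Mki67, Plk1 and Ccnb1 follow, 5′ to 3′ on the gene's strand, with either motif in capitals on whichever strand it was found. Ccnb1 holds CCAAT alone, as do the windows of Cenpe and Bub1, which are not printed. Aurka and Kif11, which did not pass the test, hold both motifs, and Birc5 and Nusap1, which passed, hold neither. Mki67 lies at chr7:135716330-135716629 (minus strand), Plk1 at chr7:122159185-122159484 (plus strand) and Ccnb1 at chr13:100786437-100786736 (minus strand). A match is a description of the letters, not evidence of binding.
Mki67: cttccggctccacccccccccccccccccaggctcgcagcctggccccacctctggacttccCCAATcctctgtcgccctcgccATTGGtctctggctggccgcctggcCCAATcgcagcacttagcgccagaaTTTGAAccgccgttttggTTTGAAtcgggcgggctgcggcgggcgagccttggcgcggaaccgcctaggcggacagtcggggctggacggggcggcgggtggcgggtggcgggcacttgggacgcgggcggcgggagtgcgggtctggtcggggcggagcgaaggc
Plk1: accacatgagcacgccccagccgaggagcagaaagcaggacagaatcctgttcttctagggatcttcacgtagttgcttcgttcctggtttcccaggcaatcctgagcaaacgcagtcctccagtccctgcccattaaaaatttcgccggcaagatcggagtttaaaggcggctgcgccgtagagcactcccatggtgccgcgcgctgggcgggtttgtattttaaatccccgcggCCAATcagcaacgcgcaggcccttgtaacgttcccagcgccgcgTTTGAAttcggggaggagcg
Ccnb1: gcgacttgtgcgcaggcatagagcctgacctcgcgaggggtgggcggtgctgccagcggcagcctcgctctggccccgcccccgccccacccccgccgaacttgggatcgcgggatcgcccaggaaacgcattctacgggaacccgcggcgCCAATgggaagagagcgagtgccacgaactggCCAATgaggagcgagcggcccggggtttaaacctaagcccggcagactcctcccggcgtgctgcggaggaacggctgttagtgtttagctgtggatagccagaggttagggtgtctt

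Antigen presentation genes of class I were lower. Of 15 antigen presentation genes, 6 were lower and none higher, with a median of -0.97. H2-K1, a class I heavy chain, was at 285 and 246 CPM in TLC against 665 and 868 in LC (-1.53, SE 0.26, adjusted p = 0.0045). H2-D1, a near-identical relative whose reads may be shared with other class I genes, fell by 1.55, with an adjusted p of 0.052 without TLC replicate 2. The light chain B2m (-1.58), the transporter Tap2 (-1.13), the immunoproteasome subunit Psmb8 (-1.34) and the class I activator Nlrc5 (-1.46) also fell, and each lost its call on leaving out 1 or more of the 4 libraries, LC replicate 2 for Tap2, Psmb8 and Nlrc5 among them. The count of lower genes was 3 without TLC replicate 1 and 3 without LC replicate 2. Class II genes did not pass: H2-Aa differed by 1.26 (adjusted p = 0.072) and Cd74 by 0.43 (adjusted p = 0.55). Of 26 interferon-stimulated genes, none passed edgeR's test, with a median of 0.08; 1 had an unadjusted p under 0.05, and DESeq2 and limma-voom called 0. Of 22 TNF and NF-kappaB genes, 5 were lower and none higher (median -0.62), among them the receptor Tnfrsf1b at 7.02 and 7.92 CPM against 41.4 and 23.6 (-2.11), and none of the 5 kept its call on leaving out each of the 4 libraries. Tnf itself was at 28.4 and 29.4 CPM in TLC and 84.2 and 36.5 in LC (-1.06, adjusted p = 0.13).

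Signalling genes changed in both directions. Of 28 Wnt pathway genes, 10 were higher and 2 lower, with a median of 0.59, and 5 were higher without TLC replicate 1 or without LC replicate 2. Among the higher were feedback inhibitors and antagonists: Nkd2, an inhibitor inside the cell, was at 48.6 and 47.9 CPM in TLC against 4.01 and 0.503 in LC (4.52, SE 0.63, adjusted p = 0.0032), and Dkk3 at 28.9 and 19.9 CPM against 4.77 and 7.11 (2.01, SE 0.28, adjusted p = 0.0020). The secreted antagonist Sfrp1 rose by 3.40 (adjusted p above 0.05 without LC replicate 2). Axin2, the general feedback target of the pathway, was at 4.39 and 5.37 CPM in TLC, 4.34 and 2.44 in LC, and 31.6 and 51.4 in BC (0.56, adjusted p = 0.41). Bmp7, a BMP ligand, rose from 5.20 and 4.52 CPM in LC to 51.0 and 33.2 in TLC (3.11, SE 0.29, adjusted p = 0.00028), and the receptor gene Bmpr1b fell from 51.5 and 36.0 CPM to 3.86 and 5.005 (-3.28, SE 0.32, adjusted p = 0.00034). Of 23 TGF-beta and BMP genes, 4 were higher and 1 lower, with a median of -0.53, and 1 was higher without TLC replicate 1. Of 22 EGF family genes, Nrg1 and Nrg2 were higher and Areg, Epgn and the receptor gene Erbb4 lower (median -0.34). Of these, Nrg1 and Areg kept their call on leaving out each of the 4 libraries. Of 13 tested genes of the epithelial-mesenchymal transition list, Fn1 (3.18), Snai2 (3.10) and Cdh2 (4.54) were higher, with Cdh2 not called without TLC replicate 1 or LC replicate 2, and 6 were higher without LC replicate 1.

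The largest increases were ranked among genes past the test whose TLC mean was 10 CPM or more, with no overlap between TLC and LC. Among them were Sez6, Dsc3, Edil3, Pou2af1, Dsg3, Megf10, Colca2, Tenm3, Pthlh, Cst6 and Lpar3. Sez6, known as a neuronal membrane protein, was at 25.3 and 17.6 CPM in TLC and had 3 counts in both LC libraries together, a pooled ratio of 156 with a 95% counting interval of 52.9 to 760. Pthlh, parathyroid hormone-related peptide, was at 19.998 and 22.6 CPM in TLC, 0.434 and 0.215 in LC, and 13.7 and 19.7 in BC (6.06, SE 0.41, adjusted p = 0.00016). Cst6, a cysteine protease inhibitor of stratified epithelium, was at 20.3 and 27.8 CPM in TLC and 0.325 and 0.431 in LC, with a call lost without either LC library. Edil3, Pou2af1 and Megf10 also lost theirs without LC replicate 1 or LC replicate 2, the first 2 without TLC replicate 1 as well.

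The largest decreases, ranked the same way on LC, were Muc16, Gm43085, Ccn5, Nrxn3, Trpc6, Dcn, Mgat3, Ctse, Slc13a2 and 3 protocadherin alpha genes. Muc16, a membrane mucin, fell from 366 and 280 CPM in LC to 8.42 and 17.7 in TLC (-4.59, SE 0.36, adjusted p = 0.00018). Trpc6, a cation channel gene, fell from 108 and 118 CPM to 4.74 and 8.92 (-4.01, SE 0.36, adjusted p = 0.00026). Ctse, the protease cathepsin E, fell from 130 and 87.4 CPM to 4.91 and 9.65 (-3.87, SE 0.36, adjusted p = 0.00031). In BC, Trpc6 stood at 7.06 and 5.36 CPM and Muc16 at 18.2 and 13.9 CPM. Ccn5, Nrxn3, Dcn and Slc13a2 lost their call on leaving out TLC replicate 1, Nrxn3 and Dcn also without any other of the 4 libraries, Ccn5 also without TLC replicate 2 and Slc13a2 also without LC replicate 1. The protocadherin alpha genes share their constant exons, so their counts are nearly the same and are best read as 1 locus: all 14 tested were lower, at 5.10 to 9.65 CPM in TLC, 109 to 165 in LC replicate 1 and 30.4 to 49.6 in LC replicate 2.

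Some of the increase went beyond every other population. Of the 881 higher genes, both TLC libraries were above both BC libraries for 397, below both for 315, and overlapping for 169. The same split over all genes tested was not counted. For 136 of the 881 (15.4%) both TLC libraries were above all 8 other libraries, which held for 3.54% of all genes tested. Of the 744 lower genes, 142 (19.1%) had both TLC libraries below the other 8, against 3.78% of all genes tested. Called genes were picked for a difference between TLC and LC, and LC is among the 8. A larger share among called genes than over all genes follows in part from that choice. The genes named next were chosen after their values were seen, from those of the 136 with at least 10 CPM that stayed called on leaving out each TLC and LC library. Atp2a3, a calcium pump of the endoplasmic reticulum, was at 113 and 76.6 CPM in TLC, 2.93 and 4.81 in LC, and 45.7 and 25.0 in THC, the next highest. Slc4a4, a bicarbonate transporter, was at 78.2 and 76.2 CPM in TLC against 6.61 and 3.02 in LC. The planar polarity genes Prickle1 and Vangl2 were both highest in TLC, Prickle1 at 83.3 and 89.4 CPM against 13.0 and 16.0 in LC, and Vangl2 at 44.4 and 48.0 against 16.7 and 14.2. Grhl3, a transcription factor of barrier epithelia, was at 16.7 and 13.0 CPM in TLC, 2.06 and 2.08 in LC, and 4.18 to 5.81 in THC. Apod, an apolipoprotein, was at 71.7 and 46.5 CPM against 4.12 and 3.80.

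**Figure D5:**
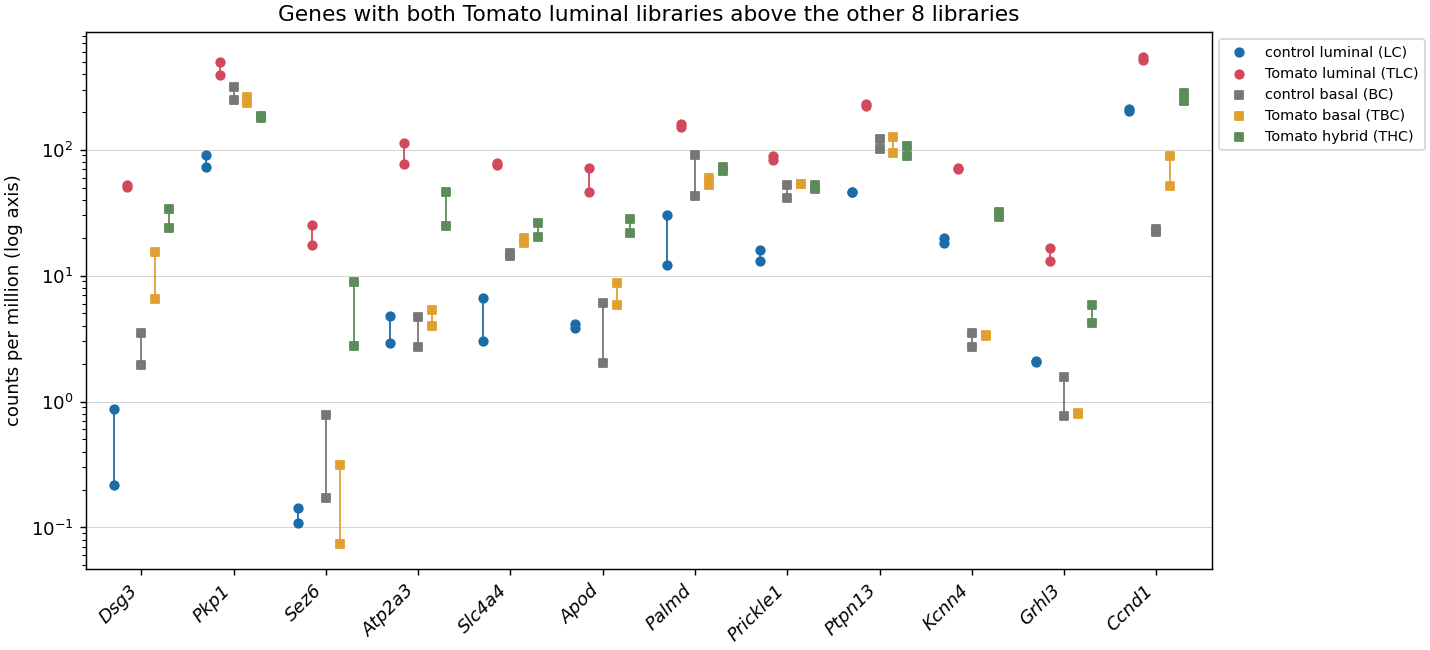
CPM on a log axis (y) of 12 genes (x) in the 5 populations, 2 points each: LC blue, TLC red, BC grey, TBC orange and THC green. The red points are the highest of each gene, and the green THC points come next for Dsg3, Sez6, Atp2a3, Apod, Kcnn4, Grhl3 and Ccnd1.

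Basal cells offer another comparison of Tomato-marked cells after ablation with unmarked cells (TBC against BC), and it uses other libraries than TLC against LC. The difference between these contrasts was tested for every gene, and 180 of 19757 (0.911%) passed, 109 positive and 71 negative (136 and 41 with upper-quartile factors, which move the median of all genes to 0.17). Without TBC replicate 2 it was 45 genes, and without TLC replicate 1 it was 65. Of the 180, 108 were higher and 70 lower in TLC than in LC. Among basal identity genes, 6 of 20 passed. Krt14 was at 1724 and 1330 CPM in TBC and 2344 and 2216 in BC, so both TBC libraries were below both BC libraries, while TLC was above LC (difference 5.13, adjusted p = 0.016). Among hormone-sensing genes, 5 of 14 passed, with Esr1 at 38.2 and 40.5 CPM in TBC against 41.5 and 57.1 in BC (difference -1.84, adjusted p = 0.033). Of the mitosis and DNA replication genes, none of 46 passed by edgeR, DESeq2 or limma-voom, and 5 had an unadjusted edgeR p under 0.05. Mki67 was at 69.9 and 251 CPM in TBC and 11.4 and 15.7 in BC, and the difference of 0.12 (adjusted p = 0.98) has an SE of 0.75, which does not show that the contrasts are alike.

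Markers of other tissue cells were present. None of 14 endothelial, 14 immune and 8 pericyte genes passed edgeR's test, and 1 in each list had an unadjusted p under 0.05. DESeq2 called 1 endothelial and 1 pericyte gene, and limma-voom called 0. The summed endothelial level was 165 and 201 CPM in TLC and 459 and 198 in LC, and the summed immune level 44.4 and 47.9 against 40.5 and 33.5. Pericyte markers summed to 351 and 418 CPM in TLC and 342 and 298 in LC. Of 12 fibroblast markers, Col1a1, Col1a2 and Fbln1 were higher and Dcn lower. Col1a1 was at 30.3 and 132 CPM in TLC against 7.80 and 3.66 in LC, and its call and that of Col1a2 were lost without TLC replicate 2, LC replicate 1 or LC replicate 2, and that of Fbln1 without LC replicate 2. The summed fibroblast level was 185 and 390 CPM in TLC and 422 and 329 in LC, and no fibroblast marker was at 0. The part of such cells in the changes of collagen and epithelial-mesenchymal genes was not tested. For the basal keratins, the part of basal cells in the sorted TLC samples was not tested either.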

How the data were processed

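Cells were sorted from mouse mammary gland by FACS and RNA libraries were made with the Ovation Solo RNA-Seq System, per the labels' protocols. The authors deposited whole-number read counts per Ensembl gene for each library; STAR, HTSeq and the builds GRCm38 and mm10 are named in the submitters' processing notes, with versions not given in the sources used here. Rows that name no gene (no feature, as well as ambiguous and multiply aligned reads) were removed. No feature made up 12.6% to 30.8% of the reads in genes and in these rows together. It was 17.4% and 30.8% in TLC and 19.5% and 27.4% in LC. Of 49671 identifiers, 49412 matched a symbol in GENCODE M21.

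Counts were tested with edgeR 4.0.16 (TMM factors, filterByExpr, robust quasi-likelihood fit) on all 10 libraries, which share the estimate of the spread (a mean for each population, 5 residual degrees of freedom), with Benjamini-Hochberg adjustment at 0.05. Alternatives used DESeq2 1.42.0, limma 3.58.1 (voom), other scaling factors and filters, and a 2-fold threshold. Others left out each LC, TLC, BC or TBC library in turn, and no THC library. The labels give no replicate numbers; numbers follow record order and were not taken as pairs. Libraries of a group differed beyond sampling noise: chi-square per degree of freedom was 24.4 in TLC and 32.4 in LC.

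The genes named were the 12 highest and 12 lowest called genes with at least 10 CPM and no overlap, up to 4 called genes of each list with the smallest adjusted p, fixed anchor genes, other list members where their list is described, and the 5 highest and lowest differences between contrasts. The groups, the 35 gene lists (written from general knowledge) and this rule were chosen with earlier results of these data known, and Agpat6 and Ahsp matched no identifier. Counting intervals and floors cover counting error only, and 3 counts correspond to 0.526 and 0.273 CPM in TLC and 0.325 and 0.215 in LC. Some results are not reported here.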

Additional observations from a re-analysis of the deposited data

Results flagged for a closer look

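Genes were flagged where the difference of TLC minus LC departed from the difference of TBC minus BC by the test of the difference between contrasts, among the 5 highest and 5 lowest of the called genes. The positive ones were Sez6 (8.46, adjusted p = 0.033), Frmpd4 (7.55, adjusted p = 0.044), Dsc3 (6.08, adjusted p = 0.0040), Colca2 (5.63, adjusted p = 0.018) and Tox (5.27, adjusted p = 0.011). Sez6 was at 0.108 and 0.144 CPM in LC, 0.784 and 0.170 in BC, and 0.316 and 0.0733 in TBC. Its difference, with an SE of 1.54, thus rests on few counts in these groups. Frmpd4 had 0 counts in both LC libraries and 0.877 and 1.09 CPM in TLC, which is at least 7.86-fold higher, while BC stood at 9.995 and 25.2 CPM and TBC at 9.31 and 5.35. Tox, a transcription factor, was at 9.30 and 6.01 CPM in TLC and 0.650 and 0.0718 in LC, against 15.5 and 10.6 in TBC and 24.9 and 18.6 in BC.

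The negative ones were Mgat3 (-4.48, adjusted p = 0.015) and the protocadherin alpha genes Pcdha9 (-3.97), Pcdha1 (-3.94), Pcdha4 (-3.93) and Pcdha6 (-3.92), with adjusted p of 0.043 to 0.048. Mgat3, which encodes a glycosyltransferase, was at 0.702 and 1.64 CPM in TLC, 12.6 and 24.9 in LC, 13.1 and 14.4 in TBC, and 5.68 and 12.2 in BC. The Pcdha genes share exons and are 1 locus, not 4 separate results, and their LC libraries lay far apart, at 109 and 30.4 CPM for Pcdha6. Their calls in TLC against LC were lost without TLC replicate 1, with an adjusted p of 0.052 for Pcdha9.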

How the results depend on the processing

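With TMM scaling 1625 genes were called in TLC against LC (881 higher, 744 lower) and 180 in the difference between contrasts (109 positive, 71 negative). Without the low-count filter the counts were 2561 (1394 and 1167) and 725 (433 and 292). With a test against a 2-fold threshold they were 397 (258 and 139) and 42 (36 and 6). With the replicate block, built from record order, they were 2527 (1284 and 1243) and 425 (239 and 186). The numbers name no shared animal or batch. Deviations of same-numbered libraries correlated at r = 0.20 for LC and TLC, and over the 10 pairs of populations from -0.01 (BC and TLC) to 0.42 (THC and TLC), with 8 pairs over 0.1. The difference between contrasts gave 505 (312 and 193) by DESeq2 and 105 (69 and 36) by limma-voom, and 41 negative genes with upper-quartile factors and 35 with only the populations compared. RLE factors and a filter of at least 5 CPM in 2 libraries kept all of these counts within 1.5 times, as did DESeq2, limma-voom, upper-quartile factors and the fit of only the populations compared for TLC against LC.

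Leaving out each library in turn gave 494 to 1107 genes in TLC against LC (299 to 671 higher, 195 to 541 lower), lowest without TLC replicate 1. In the difference between contrasts it gave 45 to 268 (29 to 172 positive, 16 to 96 negative): 45 without TBC replicate 2, 65 without TLC replicate 1, 69 without TBC replicate 1, 98 without BC replicate 2 and 268 without LC replicate 1. A lone library is assumed to vary like the other groups. As an alternative chosen after seeing the data, the same genes were tested without TLC replicate 1, which gave 467 (291 and 176) and 55 (40 and 15), and without TLC replicate 2, which gave 1107 (702 and 405) and 115 (90 and 25). The cause was not tested. No named gene changed sign in an alternative where it was called there or with all libraries. The balance of the calls did turn: without LC replicate 2, 338 genes were higher and 381 lower. Of the TNF and NF-kappaB list, 1 gene was higher and 0 lower without LC replicate 1, and of the milk list, 0 were higher and 1 lower without LC replicate 2. Of 106 named genes that were called, 36 kept their call in all alternatives other than those chosen after seeing the data and 70 lost it in 1 or more, the 2-fold threshold included.

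With 2 libraries a group and 5 residual degrees of freedom, small changes and genes of few counts are the least certain.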
